A study of Mus musculus with 7 samples.

Results

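Sense and antisense levels were set side by side in mouse kidney, using the 3 kidney arrays of a series of 7 arrays from brain and kidney. The arrays were a 430 2.0 array that read sense transcripts and a U74A and a U74B array that read antisense transcripts. On the U74 arrays, some probe sets (groups of short oligonucleotides that together read a transcript) lie in the reverse orientation, and the authors used these, as listed in the maker's mask, to read RNA from the opposite strand of a gene. A gene was taken in where at least 1 reverse probe set and at least 1 sense probe set carried its symbol alone. This gave 2830 genes, of 2915 genes with a reverse probe set and 18193 with a sense probe set. The U74A array represented 1288 of them and U74B 1542.

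All 3 groups were total RNA of whole mouse kidney, rinsed in cold buffer and extracted with TRIzol, labelled with biotin from 6.75 micrograms of RNA. Strain, sex, age, treatment and the number of animals are not given in the sources used here, and there was 1 array per group. There was therefore no replicate error and no test of any difference between strands, and the only spread available was that between several probe sets of a single gene. In whole tissue, fewer cells of a type and less RNA per cell cannot be told apart.

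Natural antisense transcripts are RNAs made from the strand opposite to a gene. They arise from neighbouring genes whose ends overlap, from promoters that fire in both directions and from separate noncoding genes, and some of them are known to alter the level, splicing or chromatin of the sense gene. The kidney is mostly tubule: proximal tubule cells reabsorb solutes and are rich in mitochondria and peroxisomes, while the later segments, from the loop of Henle to the collecting duct, adjust salt, calcium and water.

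Each value is a percentile, the share of probe sets on the same array that lie at or below it, because the arrays differ in content and in scale. The median signal was 38.8 on the 430 2.0 array (45037 probe sets), 18.3 among the U74A reverse probe sets (2611) and 42.2 among those of U74B (3041). A gene was represented on each strand by its highest probe set. "High" means a percentile of 75 or more and "low" a percentile under 50, so a gene can also lie between. A gene called high on sense alone or on antisense alone is high on that strand and low on the other. Genes from 50 to under 75 on the other strand are not counted there. A number in brackets after a signal is its percentile. The sense array carried kidney RNA by its markers. All 5 measured proximal tubule markers were high (signals 707.8 to 6048.8), as were the loop, distal and collecting duct markers. Of the podocyte markers, Podxl was high (signal 1837.5) and Nphs1 was not (121.8). The 3 neuronal markers (6.6 to 43.3) and the 4 adrenal markers (8.8 to 74.8) were not high, while fat (Fabp4 4989.2, Adipoq 616) and blood cell and platelet markers (Alas2 430.1, Pf4 413) were. The part of fat and blood RNA in the results below was not tested.

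Of the 2830 genes, 515 (18.2%) were high on both strands and 633 (22.4%) were high on sense and low on antisense. The reverse pattern, high antisense with low sense, was held by 95 genes (3.36%), and 254 (8.98%) were low on both. The other 1333 lay between. Sense was high for 1598 genes (56.5%) and antisense for 804 (28.4%), and the median gene stood at percentile 78.2 on sense and 55.2 on antisense. The counts move with the probe set that stands for a gene. With the median probe set in its place, 278 genes were high on both strands, 376 high on sense alone, 139 high on antisense alone and 439 low on both. They also move with ranking over whole arrays, where joined genes stand high on sense. Ranked anew among the joined genes alone, 227 were high on both, 280 on sense alone, 298 on antisense alone and 786 low on both. That ranking gives each strand the same share of high genes, so it largely fixes the balance of sense-alone and antisense-alone genes in advance.

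**Figure D1:**
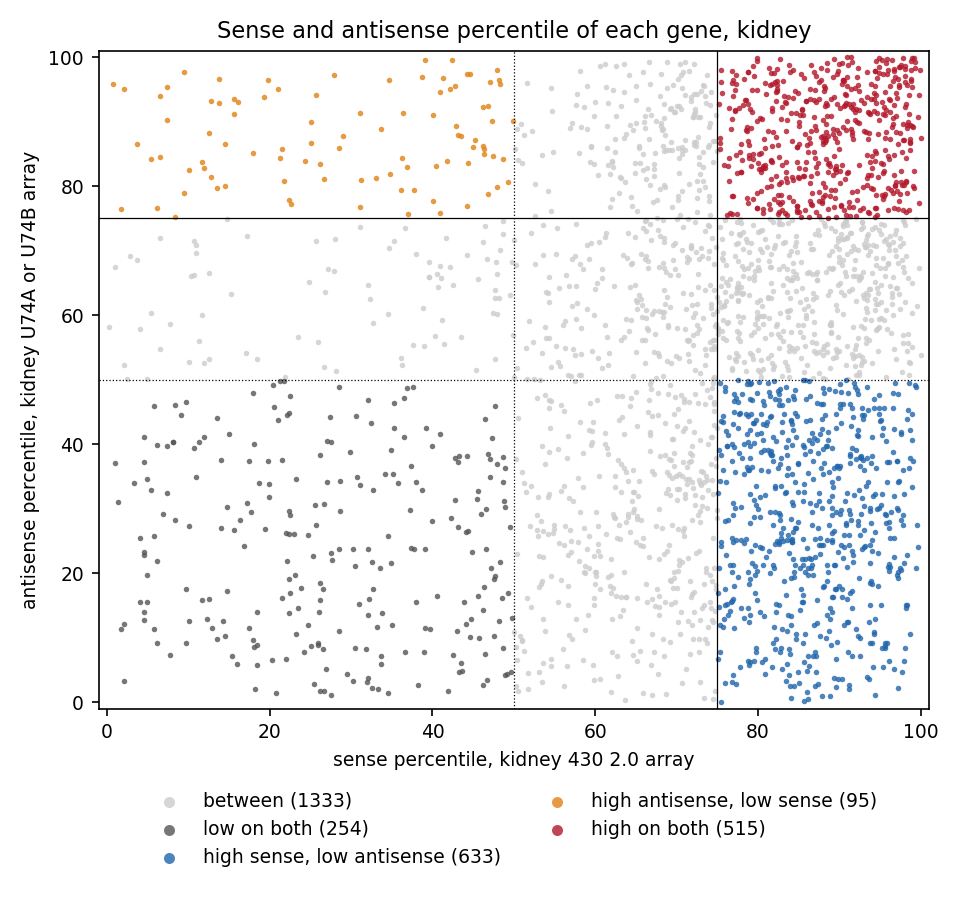
Sense percentile (x axis) against antisense percentile (y axis) of the 2830 genes in kidney, 1 point per gene, coloured by class with the number of genes in each. Solid lines mark percentile 75 and dotted lines percentile 50. The points crowd to the right because genes with a reverse probe set rank high on the sense array (median 78.2), and the upper left corner, high antisense with low sense, is thin, with 95 genes.

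Genes of higher sense rank were more often high on antisense. Antisense was high for 37 of the 175 genes under sense percentile 25 (21.1%, exact 95% binomial interval 15.3 to 27.9) and for 229 of the 617 genes from percentile 90 up (37.1%, 33.3 to 41.1). The bins between gave 22.1%, 24.4% and 29.2%, and the median antisense percentile went from 40.3 in the lowest bin to 66.1 in the highest. The share went from 20.3% to 33.9% among the genes read on U74A and from 21.9% to 43.2% among those on U74B. Among the 927 genes with 1 probe set on each strand, where no highest probe set could be chosen, it went from 16.4% to 43.5%. Over all genes the relation was weak, with a Spearman rho of 0.18 across 2830 genes (U74A 0.161, U74B 0.215); genes are not independent replicates, and the intervals cover counting error only. In every bin most genes were not high on antisense, as among all 2830 genes (28.4% high).

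**Figure D2:**
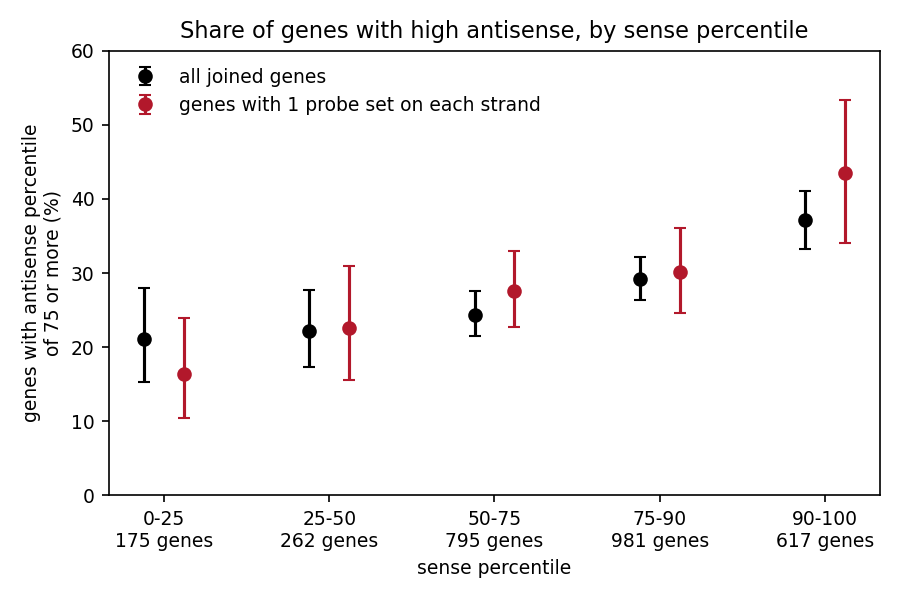
Percent of genes with an antisense percentile of 75 or more (y axis) in 5 bins of sense percentile (x axis), for all joined genes (black) and for the genes with 1 probe set on each strand (red). Bars are exact 95% binomial intervals over genes, and the numbers under the axis count the genes of the black points. The black points go from 21.1% to 37.1% and the red points from 16.4% to 43.5%.

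Repeat readings of a gene show how firm a class is. Where several sense probe sets read a gene (1821 genes), their percentiles lay a median of 32.4 points apart from highest to lowest, and among antisense probe sets (350 genes) the median gap was 33.1 points. Of the 171 genes whose highest antisense probe set was high, with at least 1 further antisense probe set, 30 (17.5%) had every antisense probe set high. For sense this held for 215 of 1193 genes (18.0%). A total of 559 genes lay within 5 points of percentile 75 on sense and 308 on antisense, so a class for a single gene with values near the line is not firm. The brain RNA read on both of its sense arrays gave a median gap of 10.6 points over the 100 probe sets those arrays share, although percentiles there are taken over different contents.

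Some reverse probe sets carry a letter before the end of their name, by which the maker marks sets that match related sequences or could not meet the usual probe rules. Antisense was high for 592 of 2125 genes represented by an unmarked set (27.9%), for 154 of 494 with the mark f (31.2%) and for 31 of 126 with the mark r (24.6%). The rarer marks gave 9 of 17 for g (52.9%), 10 of 32 for s and 8 of 36 for i. The unmarked share was 73.2% among genes high on both strands, 72.7% among those high on sense alone, 71.6% among those high on antisense alone and 75.6% among those low on both. In the gene accounts below a marked reverse set is named as such. Sense sets can carry letters too, and these are not named. Each gene stands by its highest set, and lower sets of the same gene are given for some genes only.

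The 15 genes at the top of both strands included widely expressed genes of translation, membrane traffic and signalling, together with S100g and Sostdc1 of the nephron. Ywhae, a 14-3-3 adaptor that binds phosphorylated proteins, had a sense signal of 5306.7 (percentile 99.3) and an antisense signal of 405.8 (percentile 99.2), and its 4 sense probe sets were all at percentile 96.5 or above. Eef1b2, an exchange factor of translation elongation, had a sense signal of 4847.7 (99.1) and an antisense signal of 1170.2 (99.8), each from a single probe set. Pcbp2, which binds poly(C) stretches in RNA, had 4261 on sense (98.9) and 1491.3 on antisense (99.9), although its other 2 sense probe sets stood at percentiles 86.4 and 36.2. These 3 genes were thus among the top 2% of both arrays by their highest sets.

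S100g, the calcium-binding calbindin-D9k of distal tubule and gut, had a sense signal of 7484.1 (99.8) and an antisense signal of 222 (98.0), also from single probe sets. Sostdc1, a secreted antagonist of BMP and Wnt signals that is made in the distal nephron, had 2999.9 on sense (98.1) and 534.1 on antisense (98.7). Its other sense probe set gave percentile 94.9. Both genes ranked at the top without a marked reverse set.

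Energy supply and translation were represented by Ndufs7, a subunit of respiratory complex I (sense signal 2936.6, percentile 98.0; antisense signal 471.7, percentile 98.2), and Rps27l, a ribosomal protein paralog (sense signal 4055.9, percentile 98.8; antisense signal 228.9, percentile 98.1). Dynlt3, a light chain of the dynein motor, had 2270 on sense (97.3) and 260.7 on antisense (98.5). Tceal9, of the TFIIS-like family, had 3991.2 (98.8) on sense and 498.8 (99.5) on antisense. The remaining 6 of the 15 leading genes rested on a marked reverse set: Tm9sf2, Tmed7, Reep3, Tpp1, Selenof and Psmb1. Tmed7, a cargo receptor of vesicle traffic, had antisense signals of 1211.2 and 909.7 from 2 marked sets. Psmb1, a proteasome core subunit, had an antisense signal of 168.8 (percentile 96.9) from the marked set and 23.3 (58.0) from the other. Selenof, a selenoprotein of the endoplasmic reticulum, had 172.7 (97.0) from the marked set and 14.5 (43.9) from the other. On sense, Psmb1 also had probe sets at percentiles 64.8 and 66.1, and Selenof had another at 25.4. Neither gene was high on both strands with the median probe set or with unmarked reverse sets alone.

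The highest reverse probe set of the U74A array belonged to Cdkn1b, which encodes the cell cycle inhibitor p27. Its antisense signal was 2788.8 (percentile 100), against a sense signal of 737.2 (percentile 90.9) from the higher of 2 sense probe sets. The other sense set read 30.3 (percentile 45.02).

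The genes of highest sense rank with low antisense also came from several processes. Ndrg1, a stress-regulated gene of differentiated epithelia, had a sense signal of 6343.3 (99.6) and an antisense signal of 6.1 (24.0), and its 5 sense probe sets were all at percentile 86.9 or above. Gdi2, which extracts Rab proteins from membranes, had 5790.4 on sense (99.5) and 7 on antisense (27.4), with all 6 sense probe sets at percentile 83.1 or above. Ndufb6, another complex I subunit, had 5413.7 (99.4) on sense and 5.1 (20.8) on antisense. For these 3 genes every sense reading was high and the only reverse set was low.

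Rtn4, the endoplasmic reticulum shaping protein also known as Nogo, had a sense signal of 4550.8 and an antisense percentile of 37.3. Cltc, the clathrin heavy chain, had a sense signal of 4279 and an antisense percentile of 44.8. Wnk1, the kinase that regulates sodium chloride transport in the distal nephron, had a sense signal of 3830.4 and an antisense percentile of 42.2. Cisd1, an iron-sulfur protein of the outer mitochondrial membrane, had a sense signal of 3770.4 and the lowest antisense percentile of these 15 genes, 10.6, by a marked set. The others were Cnn3, Prpf19, Ndufa10, and, by marked sets, Atp5d, Ccni, Ddx3x, Rtraf and Got2. Antisense percentiles of all 15 lay between 10.6 and 49.4, so several were only just low.

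The 15 leading genes with high antisense and low sense included several known from tissues other than kidney. The class is defined by low sense in kidney, so the presence of such genes says nothing about their antisense. Gast encodes the stomach hormone gastrin: its sense signal was 2.8 (percentile 9.4), while its 2 reverse probe sets, both marked, read 196.3 (97.8) and 184.1 (97.4). Ghrh, the hypothalamic growth hormone-releasing hormone, had a sense signal of 7.6 and reverse readings of 147.8 (96.4) and 29.4 (65.01), both from marked sets. Tnp1, a transition protein of sperm chromatin, had 22.6 on sense and 170.6 on antisense (96.9) by 1 marked set, against 1.5 (3.9) by another marked set. Clgn, a testis chaperone (4.3 sense, 160.9 antisense), and Ckmt2, the mitochondrial creatine kinase of muscle (0.5 sense, 136 antisense), rested on marked sets too, and a second marked set of Ckmt2 read 31.5 (66.8). The second reverse reading was thus high for Gast and not for Tnp1, Ghrh or Ckmt2.

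Rara, a nuclear receptor of retinoic acid, had a sense signal of 13.2 (27.9) and an antisense signal of 363.4 (97.2). Cbx3, which binds methylated histone H3 in silent chromatin, had 23.1 (39.1) on sense and 569.6 (99.5) on antisense. Lin7a, a scaffold of cell junctions, had 29.3 on sense and 379.5 on antisense (97.4). Each of these 3 had an unmarked reverse set. Cbx3 and Rara were each represented on sense by a single probe set carrying their symbol alone, so their low sense rank has no second reading. Ankrd42, with the highest antisense signal of the class (1137.5, percentile 99.5; sense 26.8), had a marked set, as did Zscan29, Pdia2 and Scx, while Epop, Garnl3 and Jsrp1 did not. Zscan29 had a second, also marked, reverse set at 9.3 (13.5).

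The 5 genes lowest on both strands included genes of lymphocytes and placenta. Gzmc, a granzyme of cytotoxic lymphocytes, had signals of 0.9 on sense and 1.4 on antisense. Il12rb1, a subunit of the interleukin-12 receptor, had 2.9 on sense and 2.6 on antisense. Prl2b1, of the placental prolactin family, had 1.9 on sense and 2.6 on antisense by a marked set, and Nt5c1b and Noxred1 had sense signals of 2.3 and 1.8 with antisense signals of 5.9 and 8.3.

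Few nephron genes had a reverse probe set. The proximal tubule list had 5 of them, all high on sense (median percentile 95.6, median antisense 52.5). Amn, the membrane partner of cubilin in endocytosis, was the only one high on both (sense signal 2514.5, percentile 97.6; antisense signal 114.3, percentile 80.6). Pck1, a rate-setting enzyme of glucose synthesis, had 3690.2 (98.6) on sense and 19.9 (52.5) on antisense, while 2 further sense probe sets gave lower percentiles. Mep1b, the meprin beta subunit of the brush border, had 1486.1 (95.6) on sense and 7.6 (29.3) on antisense. Slc17a3, an organic anion transporter, had 770.4 (91.3) on sense and 27.8 (38.5) on antisense by a marked set, and Akr1c21, a hydroxysteroid dehydrogenase, had 269 (79.1) on sense and 22.6 (56.9) on antisense.

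The list of loop, distal tubule and collecting duct genes had 7, with 3 high on both strands. Calb1, the calcium-binding calbindin-D28k of the distal convoluted tubule, had 4689.5 (99.1) on sense by its highest of 4 probe sets and 168.9 (89.2) on antisense. Its other sense sets ran down to 4.3 (13.8). Atp2b1, a plasma membrane calcium pump, had 1208 (94.5) on sense and 213.7 (92.9) on antisense. With Sostdc1, these were the 3 on this list, and S100g, a calcium-binding protein like Calb1, lay outside it. Fxyd4, a regulator of the sodium pump in collecting duct, was high on sense alone (sense signal 1233.7, percentile 94.6; antisense signal 19.7, percentile 29.99), like Wnk1. Aqp3, the basolateral water channel of collecting duct, had 1512.3 (95.7) on sense and 42.9 (50.4) on antisense, and Stk39, the kinase downstream of Wnk1, had 242 (77.5) on sense and 22.4 (56.4) on antisense. The podocyte adaptor Cd2ap had 808.5 (91.7) on sense and, by a marked set, 47.3 (53.5) on antisense. Of the reference genes, the transferrin receptor Tfrc was high on sense alone (sense signal 2650.2, percentile 97.8; antisense signal 17.7, percentile 27.6) and the TATA-binding protein Tbp was high on neither (sense signal 161.2, percentile 71.5; antisense signal 20.2, percentile 53.0). Further sense sets stood at percentiles 66.2 and 32.1 for Tfrc and at 8.07 for Tbp.

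**Figure D3:**
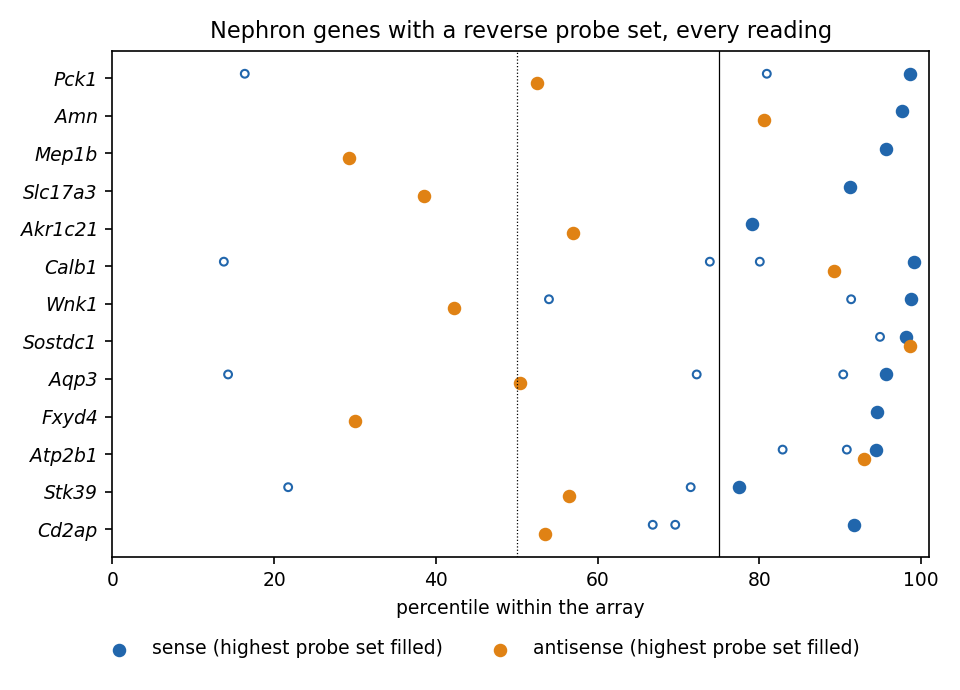
Percentile within the array (x axis) of every kidney reading for 13 genes with a reverse probe set (y axis). The genes are those of the proximal tubule, loop to collecting duct, and podocyte lists, and S100g is on none of these. Sense is in blue and antisense in orange, with the highest probe set of each strand filled. The solid line marks percentile 75 and the dotted line percentile 50. All 13 genes are high on sense by their highest probe set, and Amn, Calb1, Sostdc1 and Atp2b1 are high on antisense too.

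Grouped by function, genes did not fall in the same order on both strands. Among all 2830 genes 28.4% were high on antisense, and 18.2% were high on both, 22.4% on sense alone and 3.36% on antisense alone, and each list count is to be read against the share of its own class. Antisense was high for 29.2% of genes from sense percentile 75 to 90 and for 37.1% from 90 up. Lists that stand high on sense are to be read against these shares too. With the median probe set 278 of the 2830 genes were high on both. Counts with unmarked reverse sets alone leave out genes that have no such set. Lists are small, and no test was made of any of them. Fatty acid and peroxisomal oxidation had 11 genes with median percentiles of 91.6 on sense and 80.1 on antisense, and 6 were high on both, or 3 with unmarked reverse sets alone. Among the 6, Acot1, an acyl-CoA thioesterase, had 1458.9 (95.5) on sense and 206.9 (92.3) on antisense, and Acaa1a, a peroxisomal thiolase, had 235.6 (77.2) on sense and 120.1 (94.98) on antisense by a marked set. Acad9, an acyl-CoA dehydrogenase, went the other way (sense signal 339.7, percentile 82.2; antisense signal 3.6, percentile 14.1).

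The 5 cytosolic ribosomal protein genes had medians of 98.8 on sense and 90.7 on antisense, with 3 high on both, or 1 with the median probe set and 1 with unmarked reverse sets alone. Rpl27a was high on sense and low on antisense (sense signal 557.3, percentile 88.3; antisense signal 34.4, percentile 44.5). Ribosomal protein genes have many near-identical processed copies, and signal from such copies cannot be separated here. The 20 genes of translation factors and tRNA synthetases had 8 high on both (medians 92.7 on sense and 71.2 on antisense). Eif4e, the cap-binding protein, had 964.3 (93.0) on sense and 6.8 (26.7) on antisense, and Aars2, the mitochondrial alanyl-tRNA synthetase, had the opposite order (sense signal 92.3, percentile 63.5; antisense signal 565.8, percentile 98.9). The 10 mitochondrial ribosomal protein genes had a similar sense rank but a lower antisense median (89.5 on sense and 46.5 on antisense): Mrpl50 was high on both (sense signal 553.8, percentile 88.2; antisense signal 67, percentile 86.8) and Mrpl48 on sense alone (sense signal 661.1, percentile 89.9; antisense signal 4.5, percentile 18.0 by a marked set).

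Chromatin and histone enzymes had the largest share high on both strands among lists of 30 or more genes, 16 of 37 (43.2%), and 19 (51.4%) were high on antisense. With the median probe set 8 of the 37 were high on both, against 278 of all 2830 genes. Smarcd2, a subunit of the SWI/SNF remodeller, had 1185.8 (94.3) on sense and 201.9 (97.9) on antisense by the highest of 5 reverse sets. The other unmarked set stood at percentile 88.2 and the 3 marked sets at 58.7, 55.9 and 46.1. Dnmt1, the maintenance DNA methyltransferase, lay at the other end, with 495.1 (87.0) on sense and 1.2 (2.49) on antisense. Cell cycle and replication genes were alike in this, with 10 of 26 high on both (38.5%) and a median of 78.6 on sense and of 74.996 on antisense. Beside Cdkn1b, Rbl2, a pocket protein related to the retinoblastoma protein, was high on sense alone (sense signal 265.2, percentile 78.9; antisense signal 3.3, percentile 12.5 by a marked set). Of the 6 histone genes, 2 were high on both, among them Macroh2a1 (sense signal 970, percentile 93.0; antisense signal 71.8, percentile 88.6 by a marked set, with the unmarked set at percentile 53.5), and the oocyte linker histone H1f8 was high on antisense alone (sense signal 11.6, percentile 25.7; antisense signal 109.4, percentile 94.2).

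Heat shock proteins and cochaperones had 14 of 28 genes high on antisense, 9 of them high on both. Canx, the lectin chaperone calnexin, had 3950.5 (98.8) on sense and 146.4 (96.3) on antisense, and Dnajc9, a histone cochaperone, had 579.3 (88.7) on sense and 3 (11.1) on antisense. Dnajb7, a cochaperone, had a sense signal of 4.6 (14.5) and an antisense signal of 146.3 (86.5) by a marked set, while its other marked set read 5.5 (6.95). Lysosomal genes had 7 of 18 high on antisense: Tpp1, a lysosomal peptidase, had 2412.1 (97.5) on sense and 491.8 (98.5) on antisense by a marked set, and Npc1, the cholesterol exporter, had 85.6 (62.4) on sense and 68.4 (87.2) on antisense. The secretory pathway had 11 of 43 and medians of 86.4 on sense and 61.3 on antisense, with Sec23b, of the COPII coat, high on sense alone (sense signal 1016.3, percentile 93.4; antisense signal 1.5, percentile 3.87).

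Respiratory chain and ATP synthase genes had the second highest sense median of the lists (98.1, 10 genes) and an antisense median of 62.6. Of these 10 genes, all high on sense, 3 were high on both, 4 were high on sense alone and 3 lay between. Citrate cycle and amino acid genes were near them (medians 96.5 on sense and 60.6 on antisense), with 5 of 10 high on both. Pccb, a subunit of propionyl-CoA carboxylase, had 871.6 (92.3) on sense and 133.9 (95.7) on antisense, and Dlst, of the oxoglutarate dehydrogenase complex, had 1746.7 (96.3) on sense and 7.7 (29.5) on antisense. The other sense sets of Dlst stood at percentiles 69.0, 52.0 and 36.7. Proteasome genes had 2 of 9 high on both and 4 on sense alone. Psmb5, a catalytic subunit, was high on sense alone (sense signal 1914.5, percentile 96.7; antisense signal 1.8, percentile 5.17).

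Of 4 regulatory and structural lists with 48 to 79 genes, ubiquitin conjugation and removal had 20 of 79 genes high on antisense, spliceosome and RNA-binding proteins 19 of 57, small GTPases and their regulators 11 of 48, and the cytoskeleton 16 of 55. Klhl9, a substrate adaptor of cullin ligases, was high on both (sense signal 1948.3, percentile 96.7; antisense signal 230.3, percentile 98.2), and so were Sf3b2, of the U2 splicing complex (sense signal 1534.9, percentile 95.8; antisense signal 1059.8, percentile 99.8 by a marked set), and the small GTPase Ralb (sense signal 1486.4, percentile 95.6; antisense signal 114.8, percentile 94.6). Srsf6, a splicing regulator, had 1626.4 (96.0) on sense and 2.1 (6.38) on antisense. Tubb3, the neuronal beta-tubulin, had 1.3 (3.72) on sense and 66.5 (86.6) on antisense. The cytoskeleton list held 6 genes with high antisense and low sense.

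Protein kinases and phosphatases ranked above all genes on sense and below them on antisense (medians 82.2 on sense and 43.3 on antisense), with 15 of 84 high on antisense and 26 high on sense alone. Ppm1h, a phosphatase of Rab proteins, had 1056 (93.6) on sense and 3.8 (3.63) on antisense, while Ppp1r14b, an inhibitor of protein phosphatase 1, was high on both (sense signal 1173.3, percentile 94.3; antisense signal 113, percentile 94.5). Lower sense sets stood at percentile 61.5 for Ppm1h and at 58.2 and 48.2 for Ppp1r14b. Zinc finger factors had 9 of 48 high on antisense (medians 73.1 on sense and 43.9 on antisense), with Zfp503 high on both (sense signal 1937.6, percentile 96.7; antisense signal 198.3, percentile 97.8) and Zfp622 on sense alone (sense signal 1709.7, percentile 96.2; antisense signal 6.5, percentile 25.5). The other sense sets of Zfp622 stood at percentiles 73.1, 63.1, 35.5 and 16.5. Solute carriers had 7 of 48 high on antisense and 15 high on sense alone (medians 78.0 on sense and 49.9 on antisense). Slc43a2, an amino acid transporter, had 737.9 (90.9) on sense and 336 (96.9) on antisense, and Slc44a1, a choline transporter, had 1475.7 (95.6) on sense and 6.7 (8.70) on antisense. Slc15a3, a lysosomal peptide and histidine transporter, was the solute carrier with high antisense and low sense (sense signal 29.4, percentile 44.4; antisense signal 129.3, percentile 83.7).

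Detoxification enzymes had the lowest antisense median of the lists (34.1, 19 genes; sense 61.3), with 2 high on antisense. Sult1c2, a sulfotransferase, had 486.2 (86.8) on sense and 219.4 (93.3) on antisense, and Nqo2, a quinone reductase, had 208.3 (75.3) on sense and 6.2 (7.79) on antisense. Immune and interferon genes had 5 of 31 high on antisense (medians 66.5 on sense and 38.2 on antisense) and 7 low on both. Ifitm1, an interferon-induced membrane protein, had 599.4 (89.1) on sense and 4.1 (16.4) on antisense. Endothelial, mural and fibroblast genes were all high on sense (6 genes, median 92.7), and 5 of them were low on antisense. Plvap, of endothelial diaphragms, had 1694.8 (96.2) on sense and 13.4 (21.0) on antisense, and Eng, a TGF-beta coreceptor, was the exception, high on both (sense signal 744.2, percentile 91.0; antisense signal 53.7, percentile 82.0).

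Neuronal genes were low on sense in kidney (median 45.02, 11 genes), and 4 were high on antisense, 3 of these with low sense. Basp1, a membrane protein of growth cones also made in other cells, was high on both (sense signal 878.5, percentile 92.3; antisense signal 482.2, percentile 98.3). Ion channels and pumps had 5 of 15 high on antisense, among them Trpm5, the taste cell channel, with low sense (sense signal 6.4, percentile 17.9; antisense signal 61.8, percentile 85.1). Extracellular matrix and adhesion genes had 9 of 33: Bgn, the proteoglycan biglycan, was high on both (sense signal 2114.4, percentile 97.1; antisense signal 103.8, percentile 93.7 by a marked set), and Timp2, a metalloproteinase inhibitor, on sense alone (sense signal 1487.3, percentile 95.6; antisense signal 2.6, percentile 9.17). Of 16 homeobox and related developmental factors 3 were high on antisense, with Pou3f3, a factor of the loop of Henle and distal nephron, high on both (sense signal 1157, percentile 94.2; antisense signal 196.7, percentile 91.6). Of the 6 loci on a list of described antisense transcripts, Psmb1 was high on both, and 2 were high on sense alone, among them the caveolin gene Cav1 (sense signal 1536.3, percentile 95.8; antisense signal 2.6, percentile 9.17).

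**Figure D4:**
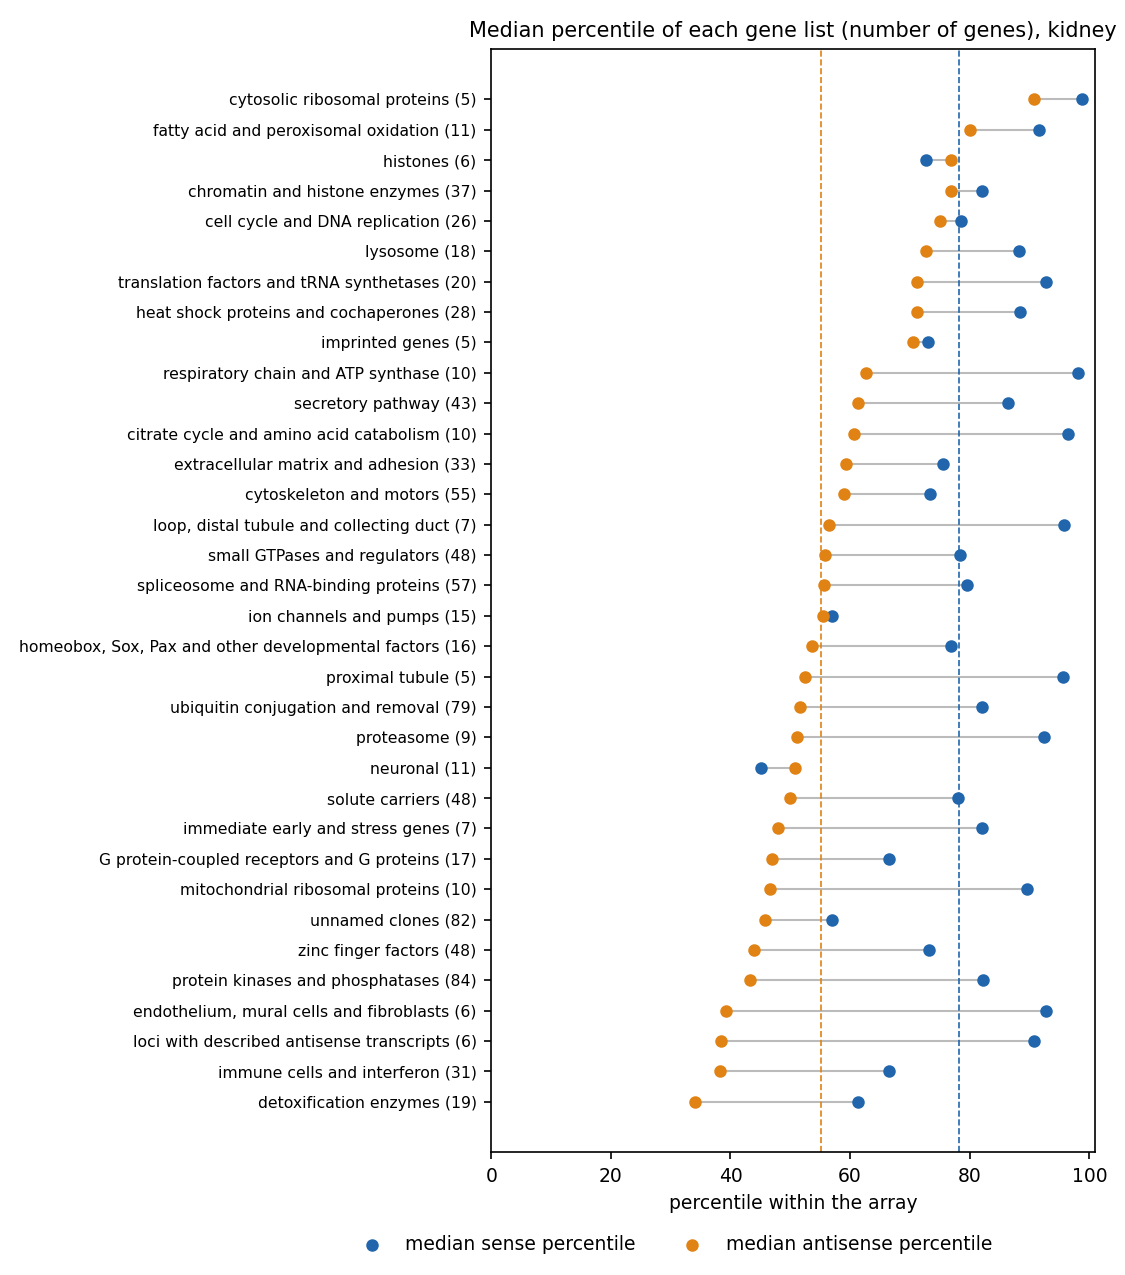
Median sense percentile (blue) and median antisense percentile (orange) of each gene list with 5 or more genes (y axis, number of genes in brackets), ordered by the antisense median. Dashed lines give the medians of all 2830 genes, 78.2 on sense and 55.2 on antisense. Cytosolic ribosomal proteins stand highest on both strands (98.8 and 90.7) and detoxification enzymes lowest on antisense (34.1).

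An annotated gene on the opposite strand is a known source of antisense RNA. Of the 2249 genes whose strand is in the RefSeq promoter table (assembly GRCm38.p6), 668 overlap a gene on the opposite strand, and antisense was high for 203 of them (30.4%, exact 95% interval 26.9 to 34.0). Among the 1581 with no such overlap it was high for 446 (28.2%, 26.0 to 30.5), so the intervals of the 2 shares overlap. Only genes with a strand in that table could count as partners. Overlaps with other genes were missed, so some of the 1581 may have one. With a gene end on the opposite strand within 1000 bases the share was 92 of 272 (33.8%, 28.2 to 39.8). With a coding partner the share was 30.5%, and with a noncoding partner antisense was high for 99 of 330 genes. The overlap is of gene bodies, introns included, and where the probes lie within a gene was not used.

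The partner's own sense level did not order the antisense readings. For the 427 overlapping genes whose partner has a sense probe set, antisense was high for 30.8% with the partner under percentile 50, and for 27.3% with the partner at 90 or above (Spearman rho -0.03). Among the 8 overlapping genes of highest antisense rank, partners of high and of low sense rank both occurred. Pcbp2 overlaps Map3k12 over 2422 bases, with Map3k12 at sense percentile 82.4. S100g overlaps Ctps2 over 2608 bases (partner percentile 84.9), and Cox20 overlaps Hnrnpu over 1586 bases (98.3). Smim4 overlaps Pbrm1 over 33466 bases (90.8), and the reverse sets of Cox20 and Smim4 were marked. By contrast Gpx8, with an antisense signal of 821.2 (99.3), overlaps Cdc20b over 3674 bases, and Cdc20b stood at percentile 5.78. Glb1l had high signals in all 4 of its reverse probe sets, each of them marked (488, 174.9, 115.7 and 102.6), and overlaps Ankzf1 over 2417 bases (72.4). By marked sets, Tmem63b had an antisense signal of 799.6 beside its partner Mrpl14 (85.2), and Wdr12 had 753 beside Carf (64.6), though 2 further reverse sets of Wdr12 read 65.9 and 15.7.

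Promoter CG counts followed the sense class. Among genes high on sense, and among genes low on sense, the classes of high and low antisense had close CG counts. Promoters rich in CG pairs are known to belong to widely expressed genes, while TATA boxes are more frequent in genes of restricted expression. In the 250 bases before the start site (RefSeq, GRCm38.p6; 2250 of the 2830 genes had an entry), the median number of CG pairs was 17 in genes high on both strands, 17 in those high on sense alone, 4 in those high on antisense alone and 5 in those low on both. All joined genes had a median of 15, and the 32851 promoters of the whole table a median of 6. The letters TATAAA on either strand were found in 6.86%, 9.77%, 13.5% and 22.7% of these 4 classes in the same order, against 9.69% of all joined genes and 12.4% of the table. A gene with several promoters was given the median of their CG counts and counted as holding TATAAA if any did. The values of the whole table are per promoter and so are not on the same footing. The genes high on antisense alone thus had the CG counts of genes of low sense rank.

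The 4 promoters that follow, 1 for each class, were taken from the genes of highest or lowest rank described above for that class (15, or 5 for those low on both). Each has the CG count nearest to its class median among those with a single promoter in the table, and other genes of the class can lie nearer. They run 5′ to 3′ on the strand of the gene, end at the base before the start site and have the CG pairs in capitals.

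Eef1b2 (chr1:63176581-63176830, plus strand): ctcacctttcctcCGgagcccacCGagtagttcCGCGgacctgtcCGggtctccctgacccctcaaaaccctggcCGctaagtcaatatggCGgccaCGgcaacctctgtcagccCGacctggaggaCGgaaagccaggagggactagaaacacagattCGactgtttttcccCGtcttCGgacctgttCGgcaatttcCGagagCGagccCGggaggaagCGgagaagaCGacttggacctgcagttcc

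Ccni (chr5:93206496-93206745, minus strand): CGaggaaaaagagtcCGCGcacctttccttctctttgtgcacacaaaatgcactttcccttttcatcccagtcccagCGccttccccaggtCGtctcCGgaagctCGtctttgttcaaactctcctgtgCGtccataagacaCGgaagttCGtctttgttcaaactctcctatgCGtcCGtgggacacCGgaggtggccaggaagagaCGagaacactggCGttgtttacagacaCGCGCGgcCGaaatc

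Gast (chr11:100334157-100334406, plus strand): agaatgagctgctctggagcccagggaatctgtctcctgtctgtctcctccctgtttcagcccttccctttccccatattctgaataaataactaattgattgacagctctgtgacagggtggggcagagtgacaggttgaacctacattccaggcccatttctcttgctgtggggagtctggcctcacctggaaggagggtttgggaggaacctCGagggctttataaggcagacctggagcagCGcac

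Prl2b1 (chr13:27390847-27391096, minus strand): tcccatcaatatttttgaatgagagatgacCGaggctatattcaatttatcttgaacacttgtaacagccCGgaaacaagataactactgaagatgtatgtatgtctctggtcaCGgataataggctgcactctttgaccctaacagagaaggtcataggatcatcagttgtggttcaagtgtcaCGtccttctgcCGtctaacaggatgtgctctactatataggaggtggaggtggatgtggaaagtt

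The promoters of Eef1b2 (high on both) and Ccni (high on sense, low on antisense) each hold 19 CG pairs. Those of Gast (high on antisense, low on sense) and Prl2b1 (low on both) hold 2 and 5. Of the 4, only Gast has TATAAA on either strand. A match of these letters is a description of the window and not a site.

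**Figure D5:**
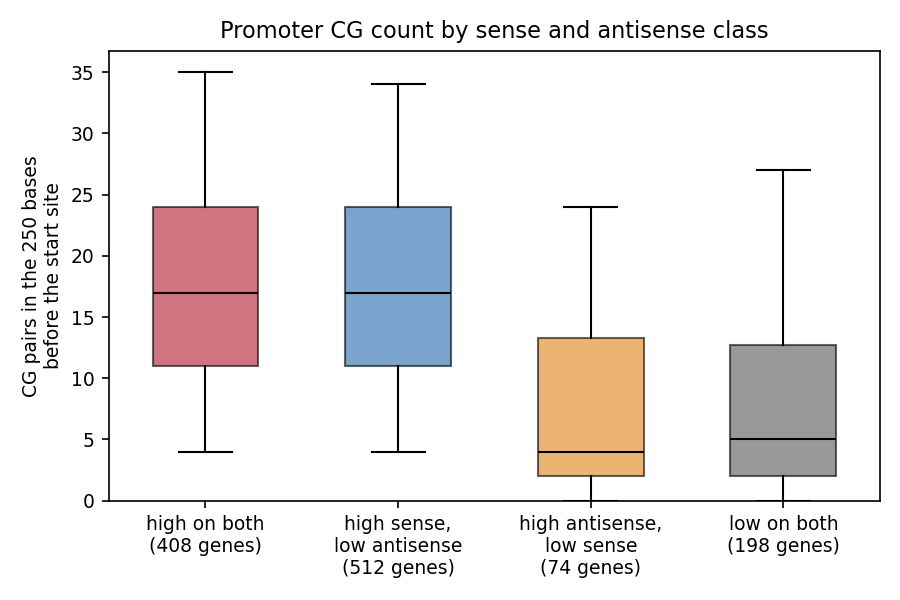
Number of CG pairs in the 250 bases before the start site (y axis) for the 4 classes of genes (x axis, number of genes with a promoter in brackets). Boxes span the quartiles with the median as a line, and whiskers the 5th to 95th percentile. The medians are 17, 17, 4 and 5 from left to right.

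The classes also differed in gene length, with median spans of 22.7 kilobases for genes high on both strands, 27.9 for those high on sense alone, 15.6 for those high on antisense alone and 15.7 for those low on both. Genes high on sense had more sense probe sets (a mean of 2.65 and 2.67 in the first pair of classes against 1.57 and 1.60), and genes high on antisense more reverse sets (1.26 and 1.23 against 1.08 and 1.04). The part of this in the class sizes was not tested. Of the 927 genes with 1 probe set on each strand, 125 (13.5%) were high on both and 133 (14.3%) on sense alone. A further 49 (5.29%) were high on antisense alone, 149 (16.1%) were low on both, and the others lay between. These 927 also held more genes of low sense rank.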

How the data were processed

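The authors deposited signal values made with MAS5 (per the submitters' processing notes), which are linear intensity values, and on the U74 arrays kept only the probe sets that the maker's mask lists as reverse, per the labels. Detection calls and the scaling target are not given in the sources used here. Reverse orientation rests on that mask. Names came from the platform annotation in GEO, updated by gene ID to RefSeq (GRCm38.p6). On 430 2.0, 34945 probe sets had 1 symbol, 932 several and 9160 none, on U74A 1552, 17 and 1042, and on U74B 1763, 66 and 1212. Only probe sets with 1 symbol were used. Percentiles were taken over all deposited probe sets of an array, and both U74 subsets are reverse sets only. A percentile ranks probe sets, whose response to RNA differs, and is not an RNA amount. Strand and promoters came from RefSeq.

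The text names the 15 leading genes of each of 3 classes, the 5 lowest on both strands, up to 3 members of each list with 5 or more genes, 8 overlapping genes and the nephron and reference genes; pseudogenes were not named. Members and the 36 lists were chosen with earlier results of these data known, and 4 kinases were taken out of the cytoskeleton list after its members were seen. S100g and a few others fall under several parts of the rule. Classification was tested on simulated data. With 1 array per group, no p-value was computed, and precision is limited by how few arrays there are. The alternatives are given in the closing section. Python 3.11.15, pandas 2.3.3, numpy 2.4.6, SciPy 1.17.1 and matplotlib 3.10.9 were used.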

Additional observations from a re-analysis of the deposited data

How the results depend on the processing

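The direction of the rank correlation held under every alternative run for it, with Spearman rho between 0.15 and 0.21. The class counts moved with the threshold and with the probe set that stands for a gene. From the 90th percentile, 110 genes were high on both strands, 211 on sense alone and 38 on antisense alone, and from the 50th 1373, 1020 and 183. With the median probe set the counts were 278 high on both, 376 on sense alone and 439 low on both, and 25.6% of overlapping genes were high on antisense against 24.5% of the others. The joined genes were also ranked anew, where each strand has the same share of high genes. This gave 227 high on both, 280 on sense alone, 298 on antisense alone and 786 low on both, with the rest between. U74A alone gave 271, 365, 39 and 93 of 1319 genes in the same order, and U74B alone 247, 300, 56 and 164 of 1574. Genes with 1 probe set on each strand, an alternative chosen after seeing the data, gave 125, 133, 49 and 149 of 927. Of the 515 genes high on both strands, 278 were so with the median probe set, 497 with the probe set of highest mean rank over both tissues, 382 of the 406 that have an unmarked reverse set with those sets alone, and 396 with sense ranked within the probe sets of 430A and 430B. With unmarked sense sets alone, 406 of the 462 that have one stayed high on both. The share of overlapping genes high on antisense ranged from 25.6% to 30.5%, and with a gene end within 1000 bases in place of overlap it was 33.8%. No paired analysis was possible because each group has 1 array. No signal over background can be given without detection calls, so a low percentile does not say that a transcript is absent.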

Other observations

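Noncoding genes were seldom high on the sense array. Of the 45 joined long noncoding RNA genes, 2 (4.44%) were high on sense against 57.6% of the 2770 protein-coding genes, while 9 (20.0%) were high on antisense against 28.7%. Oip5os1 and 1500011B03Rik were the 2 high on both strands, with sense signals of 1186.1 and 237.7 and antisense signals of 93.4 and 368, the second by a marked set. Meg3, an imprinted noncoding RNA, had 177.8 on sense (percentile 73.0) and 34.6 on antisense (70.5), and Hoxd3os1, itself named as an opposite-strand transcript of Hoxd3, had 130.7 (68.4) and 111 (80.1). For a noncoding gene named as antisense to another, the reverse probe set reads the strand opposite to that RNA, by the mask. These 4 noncoding genes were chosen after their values were seen.

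Reverse probe sets with no gene symbol were counted apart, per probe set and not per gene. High were 227 of 1042 on U74A (21.8%) and 289 of 1212 on U74B (23.8%). Among reverse sets with 1 symbol, counted likewise, 417 of 1552 (26.9%) and 450 of 1763 (25.5%) were high. The highest signal of the U74B reverse subset, 3945.1, was among the sets with no symbol. Genes with a reverse probe set and no sense probe set of the same symbol were high on antisense in 25 of 85 cases (29.4%). The RIKEN and other clone-named genes had 21 of 82 high on antisense (medians 56.9 on sense and 45.8 on antisense), and 4933417A18Rik had 0.9 on sense (percentile 2.09) and 258.2 on antisense (percentile 95.002) by a marked set, while its other marked set read 9.9 (percentile 14.3).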
